A study of Mus musculus with 3 samples.

Results

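Among the cells of a day 25 mouse molar library, 118 mesenchymal cells carried the transcripts of both Sfrp2 and Pmch. They were 118 of the 5657 cells kept from that library (2.09%, exact Clopper-Pearson 95% interval 1.73 to 2.49) and of 14305 cells kept from all 3 libraries of the study. They were selected on their own transcript counts. A cell had to have at least 10 unique molecular identifiers (UMIs, one per captured transcript) of Sfrp2 and at least 1 of Pmch. It also had to have under 3 UMIs of Tac1 and Aox3 together, under 10 Dspp UMIs per 10000, and none of Ptprc, Pecam1 or Epcam, which mark leukocytes, endothelium and epithelium. Sfrp2 and Pmch levels in these cells are therefore a description, and nothing is supported with them.

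Mandibular molars were dissociated, and cells from the dental pulp and the tissues around the root were sorted by fluorescence for droplet sequencing of transcript 3' ends. The day 25 library (P25) came from mice with the genotype Col1a1-GFP; Cxcl12-creER; R26R(tdTomato/+). GFP there is driven by Col1a1 regulatory sequence, and tdTomato marks cells in which a tamoxifen-inducible recombinase under Cxcl12 control was active, together with their descendants. Cells with GFP, tdTomato or both were collected, so the library is a sorted selection and not a whole tooth. Not every kept cell reached 5 UMIs of a reporter, as given below. The Cxcl12-GFP P6 library came from Cxcl12-GFP/+ mice at postnatal day 6, sorted for GFP, and the Cxcl12-creER P6 library from Cxcl12-creER; R26R(tdTomato/+) mice of the same age, sorted for tdTomato. The time of tamoxifen and the number of animals behind each library are not given in the labels used here. Each group was 1 library, so no value has a replicate error, no test between groups or cell sets was possible, and every interval covers counting error only. The libraries held 1691 to 7528 barcodes and 6596256 to 99277096 UMIs, and the median depth of kept cells was 1470 to 15089 UMIs.

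Sfrp2 encodes a secreted protein that binds Wnt ligands, and in mesenchyme it is a common mark of fibroblasts and of tooth-forming tissue. Pmch encodes the precursor of melanin-concentrating hormone, a peptide best known from neurons of the lateral hypothalamus, where it acts on feeding and sleep through the receptor Mchr1. Igfbp3 encodes the main circulating carrier of insulin-like growth factors, made by many stromal cells. At the age sampled, molar roots of the mouse are close to completion, and the mesenchyme of a molar includes pulp, odontoblasts, cementoblasts, periodontal ligament and the alveolar bone lining.

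Sfrp2 lies on chromosome 3 (83766321 to 83774316, plus strand, GRCm38, ENSMUSG00000027996), Pmch on chromosome 10 (88091072 to 88092375, plus strand, ENSMUSG00000035383) and Igfbp3 on chromosome 11 (7206086 to 7213923, minus strand, ENSMUSG00000020427). The annotation has a gene on the opposite strand over each gene of the gate, Gm26771 over Sfrp2 and Parpbp over Pmch. Gm26771 had 273 UMIs in the 118 cells and Parpbp 1. Whether the counting used strand is not given in the sources used here, so reads of Sfrp2 and Gm26771 cannot be told apart with certainty.

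Requiring Sfrp2 left 741 of 5657 kept cells, and requiring Pmch left 124 of those. The limits on Tac1 and Aox3 and on the lineage genes took the number to 118. The Sfrp2 count per cell was 10 at the lowest, 67 at the median and 523 at the highest. The Pmch count was 1 at the lowest, 3 at the median and 396 at the highest. Sfrp2 was thus well above its minimum in most members, while for Pmch 45 members had exactly 1 UMI, 39 had 2 to 9 and 34 had at least 10. The 3 cells with the most Pmch held 787 of the 2229 Pmch UMIs of the group.

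The values next to the limits were as follows. Of the members, 14 had 10 to 19 Sfrp2 UMIs, while 17 cells with 5 to 9 Sfrp2 UMIs also had Pmch and fell just outside. A Tac1 or Aox3 UMI was seen in 11 members and a Dspp UMI in 6. At least 10 Pmch UMIs were counted in 50 cells without lineage genes, of which 34 were members, 14 had too little Sfrp2 and 4 had too much Tac1 and Aox3, with some in both of the last groups. In the plot of Sfrp2 against Pmch, cells with at least 10 Pmch UMIs lie on both sides of the Sfrp2 limit.

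**Figure D1:**
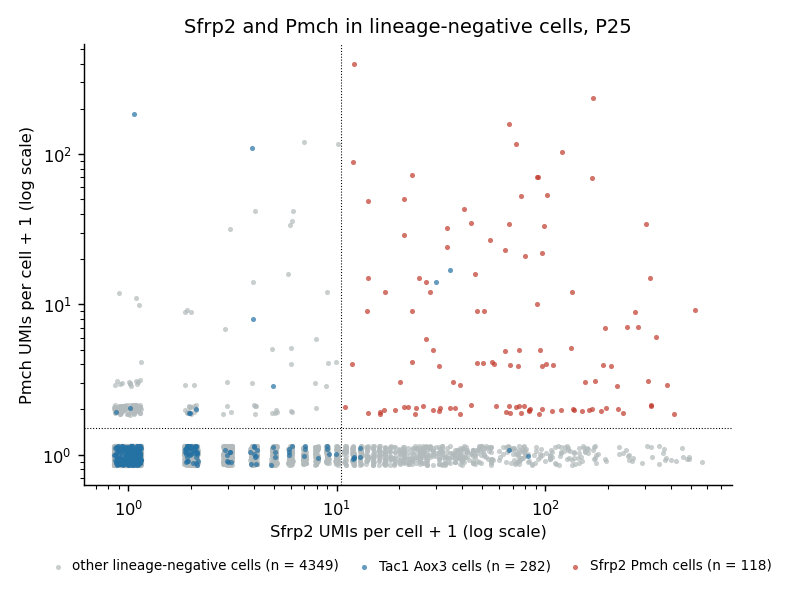
Each point is 1 cell of the P25 library without Ptprc, Pecam1, Epcam or high Dspp, placed by its Sfrp2 UMI count plus 1 (horizontal, log scale) and its Pmch UMI count plus 1 (vertical, log scale), with a small random shift so that points do not cover each other. Dotted lines mark the limits of 10 Sfrp2 UMIs and 1 Pmch UMI, and the 118 members fill the upper right from the single-UMI row up to 396 Pmch UMIs.

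A single Pmch UMI can also come from RNA released by other cells. Pmch was seen in 10 of the 581 Ptprc-positive cells (1.72%, 0.828 to 3.14), at a median depth of 16610 UMIs and with at most 3 UMIs per cell. It was seen in 1.64% of the 183 Epcam-positive cells, with at most 1 UMI, and in 3.87% (1.57 to 7.81) of the 181 Pecam1-positive cells, where the highest cell held 62 UMIs. The summed level of Pmch in the Pecam1-positive cells was 34.4 CPM (a gene's share of the UMIs summed over a set of cells, scaled to a fixed total per set), above the 13.3 CPM of the non-member cells without lineage genes. Among cells without lineage genes it was seen in 3.71% (3.15 to 4.34) of those under 10 Sfrp2 UMIs and in 17.1% (14.4 to 20.1) of those with at least 10, at median depths of 14623 and 16509 UMIs. The share with exactly 1 Pmch UMI was 1.55% in Ptprc-positive cells and 6.40% in cells with at least 10 Sfrp2 UMIs. After each cell was thinned to 3000 UMIs, Pmch was seen in 53.4% (44.0 to 62.6) of members, in 0.175% of Ptprc-positive cells (11 shallower cells left out) and in 9.29% (7.24 to 11.7) of the cells with at least 10 Sfrp2 UMIs (3 left out). All members carry Pmch by the gate and are counted among the cells with at least 10 Sfrp2 UMIs. Their thinned share is a description and is not comparable with that of cells not chosen for Pmch. Which of the 45 members with 1 Pmch UMI held it as free RNA was not tested. Mchr1, the receptor gene, had 1 UMI in all members together.

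The members were deeper than other cells without lineage genes, with 6926, 19535.5 and 62261 UMIs at the lowest, median and highest against a median of 14717. The median number of genes was 4328.5 against 3688, and the mitochondrial share was 4.45% against 4.87% at the median. The part of depth in the results was not tested beyond the thinned shares and the alternative that left out the 9 members above the 95th percentile of depth. No doublet caller was run. No member barcode occurred in another library.

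The labels call the sorted cells mesenchymal, and the fibrillar collagen genes Col1a1, Col1a2 and Col3a1 were detected in all 118 members. The gate fixed Ptprc, Pecam1 and Epcam at 0. Of the defining markers of other cell types outside the gate, Cdh5, Emcn and Cldn5 of endothelium, Sox10 of Schwann cells, Adgre1 of macrophages, Ly6g of neutrophils, Cd3e and Ms4a1 of lymphocytes and Amelx and Krt15 of epithelium were at 0 in every member. For each of these, 0 of 118 cells allows a share of cells with a UMI of up to 2.54%, taken as 3 cells of 118 and for counting error only. Other genes of these lists had UMIs in members, and of the macrophage and neutrophil lists only Adgre1 and Ly6g were at 0. The endothelial list of 7 genes summed to at most 0.999 UMIs per 10000 in any member, the macrophage list of 7 to at most 2.31, and the dental epithelium list of 7 to at most 6.58, with 5 or more UMIs in 7 members. The neutrophil list of 7 summed to at most 1.44 and the lymphocyte list of 4 to at most 2.15. At the median the macrophage and neutrophil lists summed to 0.332 and 0.289 in members, against 0 in other cells for both. The erythroid list of 5 summed to up to 105 per 10000, with 5 or more UMIs in 2 members, and its part in the results was not tested. The sum of 7 Schwann markers was higher than in other cells, at a median of 4.87 against 1.51 per 10000, and in it the adhesion gene Ncam1 was detected in 116 members. The mural list of 8 genes summed to 0, 6.87 and 212 UMIs per 10000 at the lowest, median and highest against a median of 0.722 in other cells, and its part in the results was not tested. Igfbp3, the other marker of the label, is not in the gate and was detected in 82 members.

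Levels were taken as CPM and ratios as log2 with 1 CPM added to both sides, among genes with at least 20 CPM in either set. Genes past 2-fold are counted. The main comparison set was the other 4631 cells of P25 outside the gate and without lineage genes or high Dspp, a mixed set that includes mineralising cells and cells with Schwann, neutrophil or erythroid transcripts. Of 6103 genes measured, 153 (2.51%) were at least 2-fold higher in the Sfrp2 Pmch cells and 274 (4.49%) at least 2-fold lower, with a median log2 ratio of 0.04. Genes of growth factor signalling, the actin cytoskeleton and imprinted loci stood among the highest, and genes of bone and dentine mineral stood among the lowest.

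Insulin-like growth factor genes were among the highest. Igf1, the growth factor itself (chromosome 10, 87858265 to 87937042, plus strand), had 5, 36 and 168 UMIs per member at the lowest, median and highest and was detected in all 118. Its level was 2014 CPM against 327.9 in the other cells, 6.14-fold higher (5.96 to 6.33). No member lacked Igf1, while it was detected in 48.0% (46.5 to 49.4) of the other cells, and in 48.0% of Ptprc-positive cells. At 3000 UMIs per cell the shares were 95.8% and 30.04% in members and other cells. Igfbp3 had 0, 4.5 and 377 UMIs per member and was at 1037 against 184.3 CPM, 5.63-fold higher (5.40 to 5.87). It was uneven: 69.5% of members had a UMI (60.3 to 77.6) against 24.5% of the other cells and 9.12% of Ptprc-positive cells, and after thinning 52.5% against 14.6%.

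Igfbp4, a binding protein that holds Igf1 until it is cleaved, was detected in all members with 3, 49 and 369 UMIs and stood at 2792 against 699.7 CPM, 3.99-fold higher (3.89 to 4.09). Igf2 was at 365 against 103 CPM. Igfbp6, a carrier that prefers Igf2, went the other way at 32.7 against 98.3 CPM. In all, 4 of 11 measured genes of this axis (13 listed) were at least 2-fold higher and 1 was lower, and the median log2 ratio was 0.39. Igfbp5 at 1354 against 1231 CPM and the receptor Igf1r at 58.7 against 91.1 CPM were not past 2-fold.

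Imprinted genes that act on growth formed the pathway list with the highest median among those with at least 4 measured genes, 1.28, with 6 of 9 measured genes (12 listed) at least 2-fold higher and none lower. H19, a non-coding RNA made next to Igf2, was at 141 against 16.7 CPM, 8.42-fold higher (7.47 to 9.48), although only 51 members had a UMI of it. Meg3, another imprinted non-coding RNA, was at 782 against 322 CPM. Cdkn1c, an inhibitor of the cell cycle, was at 429 against 171 CPM and was detected in 114 members. Peg3 at 263 against 125 CPM, Mest at 220.5 against 80.5 CPM and Igf2 made up the 6. Igf2 is in this list and in the growth factor list.

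Genes of the contractile apparatus were higher as well. Acta2, smooth muscle actin (chromosome 19, 34241090 to 34255590, minus strand), had 0, 9 and 293 UMIs per member and was detected in 78.0% (69.4 to 85.1) of them against 22.1% of the other cells and 11.7% of Ptprc-positive cells. Its level was 1267 against 220 CPM, 5.76-fold higher (5.54 to 5.98). Tagln, an actin cross-linker of smooth muscle and myofibroblasts, was at 860 against 157 CPM and was detected in 105 members. Myl9, a myosin light chain, was at 582 against 173 CPM, Tpm2, a tropomyosin, at 843 against 361 CPM, and Tpm1 at 2049 against 990 CPM. These 5 of 7 measured genes (12 listed) passed 2-fold upward, none passed it downward, and the median log2 ratio was 1.22. Myh11, Cnn1 and Des, which mark differentiated smooth muscle, were under 20 CPM in both sets.

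The pericyte gene Rgs5 also passed 2-fold, at 205.5 against 95.5 CPM, but 3 members held 457, 12 and 5 of its 522 UMIs, and only 33 members had any. Without those 3 cells Rgs5 was at 19.4 CPM, below the other cells, with a log2 ratio of -2.24. Of 5 measured mural markers (8 listed), Acta2 and Rgs5 were higher, and Kcnj8, Notch3 and Cspg4 were not past 2-fold. Without the 3 cells, the contractile count stayed at 5 of 7. One member grouped with a cluster led by Myh11 and Rgs5, and the part of mural cells in the Acta2 level was not tested beyond this.

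Among the peptide genes, 5 of 24 listed reached the level measured, and 3 of the 5 were at least 2-fold higher. Pmch itself is a gate gene. Nts, the precursor of neurotensin, was at 136 against 39.0 CPM but was detected in only 38 members. Penk, the precursor of enkephalins, was at 85.0 against 37.5 CPM in 68 members. Pthlh, parathyroid hormone-related peptide, was lower at 28.0 against 83.6 CPM. Genes that process peptide hormones were not higher: of 5 measured (13 listed), 2 were at least 2-fold lower, with the carboxypeptidase Cpe at 81.9 against 395 CPM and the convertase Pcsk6 at 8.66 against 40.6 CPM.

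Secreted antagonists of the Wnt pathway differed in both directions. Besides Sfrp2, a gate gene, Wif1, which sequesters Wnt ligands, was at 3718 against 1820 CPM and was detected in all members with 2, 60.5 and 301 UMIs. Sfrp1, a relative of Sfrp2, was at 431.5 against 152 CPM in 116 members. Dkk1, which blocks the Wnt co-receptor, had 1 UMI in each of 2 members and was at 0.787 against 28.5 CPM. That makes 3 of 8 measured genes (13 listed) higher, the gate gene included, and 1 lower, with a median of 0.57. Among Wnt ligands and R-spondins, Wnt11 was at 21.7 against 9.90 CPM while Wnt5a was at 48.8 against 108 CPM, and 1 of 6 measured genes was higher and 3 were lower. Of 6 feedback targets of the pathway none was higher, and 1, Tcf7, was lower.

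Among bone morphogenetic protein (BMP) genes, the antagonist Grem1 was higher and most of the genes past 2-fold were lower. Grem1 was at 29.1 against 8.23 CPM in 31 members. The 4 measured ligands, Bmp2, Bmp3, Bmp4 and Bmp7, were each at least 2-fold lower, with Bmp2 at 22.05 against 123 CPM and Bmp3 at 33.1 against 139 CPM, and the decoy receptor Bambi was at 110 against 377 CPM. Over the list, 2 of 11 measured genes (18 listed) were at least 2-fold higher and 5 lower, with a median of 0.25. Of 8 genes that respond to BMP signals, 3 were lower and none higher, and the first of them by level, Id1, was at 114 against 266 CPM. The median of the response list was -0.88.

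Several other signalling genes were high in many members. Gas6, the ligand of the Axl and Mer receptors, was at 565 against 118 CPM and was detected in 117 members. Angpt1, a ligand of the endothelial receptor Tie2, was at 134 against 21.2 CPM in 92 members, and was the only one of 12 measured stromal niche genes past 2-fold upward, with 4 lower. Bdnf, a neurotrophin, was at 74.8 against 14.9 CPM in 60 members. The receptor Gfra2, the guidance cue Netrin-1 (Ntn1) and the ephrin receptor Epha3 were also higher, at 44.5, 36.6 and 113 CPM against 9.09, 16.0 and 36.6 CPM. In the neurotrophic and guidance list, 4 of 13 measured genes (26 listed) were higher and 3 lower. Ltb, a lymphotoxin, was at 62.2 against 10.1 CPM in 64 members.

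Further genes near the top have varied roles. The water channel Aqp5 was at 72.1 against 5.81 CPM, 12.4-fold higher (10.4 to 14.8), with UMIs in only 33 members. Pcp4, a modulator of calmodulin, was at 487 against 84.9 CPM in 85 members. Lsp1, an actin-binding protein, was at 520 against 100 CPM in 112 members, and the dipeptidase Dpep1 at 215 against 42.8 CPM in 113. Lsp1 and Dpep1 were therefore broad in the group, while Aqp5 and H19 were each carried by fewer of the cells. Slc1a3, a glutamate transporter, was at 68.5 against 14.5 CPM, and Elovl4, a fatty acid elongase, at 116.5 against 25.9 CPM.

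Most genes of fibrillar collagens and fibre assembly did not pass 2-fold, though a larger share was higher than over all genes. Mfap4, an elastic microfibril protein, had 0, 12 and 48 UMIs per member and was at 624 against 103.5 CPM, 6.03-fold higher (5.71 to 6.36). Mfap2 was at 704 against 310 CPM, Fbln5 at 111 against 39.5 CPM and Eln, elastin, at 109.5 against 48.8 CPM. These were the 4 of 27 measured genes of the list at least 2-fold higher, with 2 lower and a median of -0.05. Over all 6103 measured genes, 2.51% were at least 2-fold higher and 4.49% lower. Col1a1 was at 26323 against 33190 CPM and Col3a1 at 16017 against 13903 CPM. Among small leucine-rich proteoglycans, Ogn was higher at 1393 against 371 CPM, Lum was lower at 1669 against 3542 CPM, and Dcn was at 1909 against 3777 CPM, just short of 2-fold.

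Mineralisation genes were low: 12 of 14 measured genes (18 listed) were at least 2-fold lower, none was higher, and the median log2 ratio was -2.90. Spp1, osteopontin, was at 383 against 7120 CPM, 18.6-fold lower (17.5 to 19.8). Bglap, osteocalcin, was at 2166 against 16215 CPM and Ibsp, bone sialoprotein, at 459 against 4521 CPM. Dmp1, a matrix protein of osteocytes and odontoblasts, had 12 UMIs in 9 members and was at 4.72 against 275 CPM, 58.3-fold lower (33.4 to 112.8). The remaining levels of these genes came from few cells, since the 3 highest members held 67.3% of the Bglap UMIs, 84.6% of the Spp1 UMIs and 87.4% of the Ibsp UMIs.

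Of 10 measured osteoblast or cementoblast markers, 7 were at least 2-fold lower and none higher, with a median of -2.92. The other 3 were Alpl, Runx2 and Sp7. Alpl, tissue-nonspecific alkaline phosphatase, was at 667 against 623 CPM and was detected in 116 members. The transcription factor Runx2 was at 187 against 187 CPM and Sp7 at 101 against 143 CPM. Other genes far lower in the members were Col2a1, a cartilage collagen, at 41.7 against 469 CPM, and Coch at 5.12 against 117 CPM.

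Of 9 periodontal ligament markers none was higher and 2 were lower, with a median of -0.49. Postn was at 4049 against 5736 CPM, Aspn at 1210 against 2055 CPM and Tnn at 503 against 705 CPM. Of 4 measured markers of mature pulp (7 listed), 2 were lower, namely Cldn10 and Enpp6. Of 5 measured apical papilla markers (6 listed), Sfrp2, Igfbp3 and Shisa2 were higher and Aox3 was lower, of which Sfrp2 and Aox3 belong to the gate and Igfbp3 to the label. Shisa2 was at 65.8 against 22.2 CPM, and Smoc2 at 92.1 against 86.1 CPM was not past 2-fold.

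Other lists differed in how many genes passed 2-fold. Over all measured genes, 2.51% were at least 2-fold higher and 4.49% lower. None of 5 hedgehog, 8 interferon or 11 glycolysis genes passed 2-fold. Among 30 measured transcription factors of dental mesenchyme, Foxf2 was higher at 82.7 against 38.3 CPM, and Msx2 and Tbx3 were lower. Of 11 cell cycle genes 2 were lower and none was higher. Of 6 FGF pathway genes 3 were lower, the receptor Fgfr1 among them at 141 against 371 CPM. Of 18 immediate early and stress genes, which rise on dissociation, 3 were lower and none higher, with a median of -0.54.

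**Figure D2:**
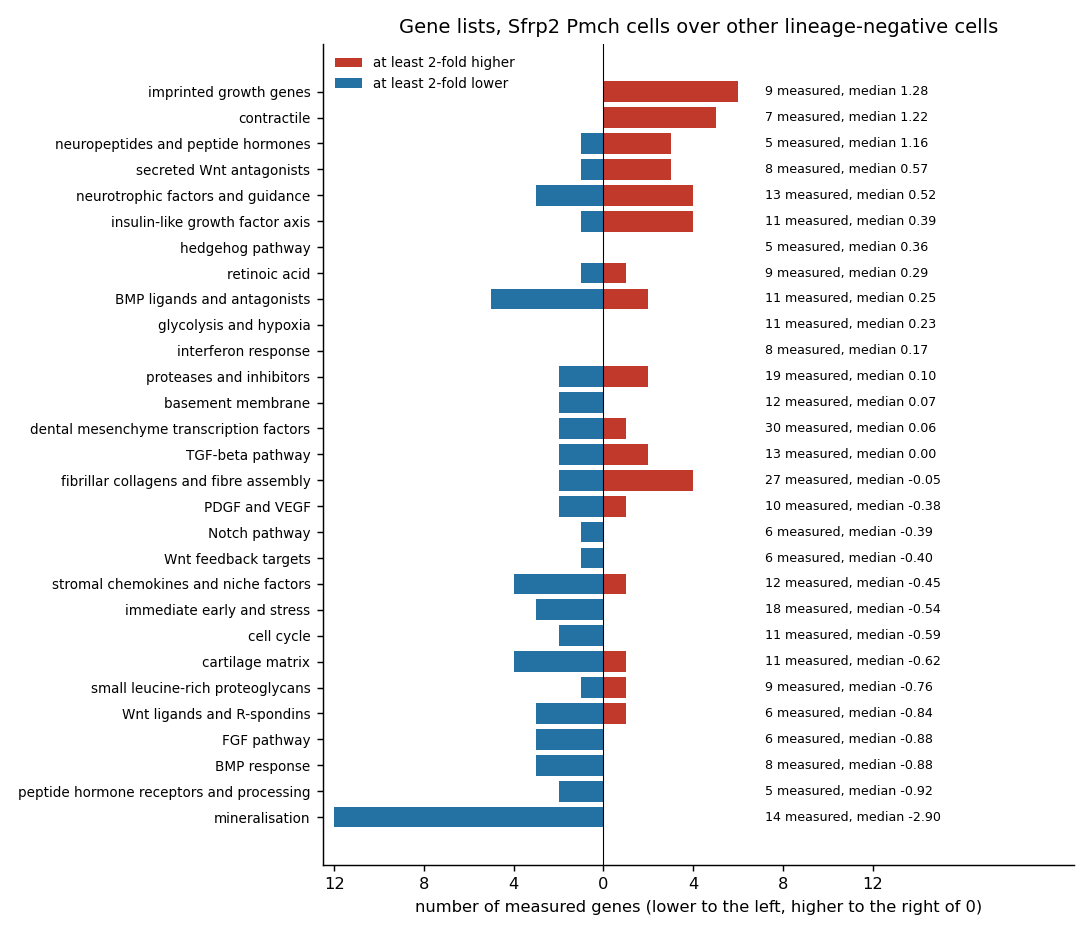
For each gene list, bars count the measured genes (at least 20 CPM in either set) that were at least 2-fold higher (right, red) or lower (left, blue) in the Sfrp2 Pmch cells than in the other P25 cells without lineage genes, with the number measured and the median log2 ratio beside them. Imprinted growth genes (6 of 9) and contractile genes (5 of 7) lie wholly to the right, and mineralisation genes (12 of 14) wholly to the left, while Sfrp2 and Pmch are counted in the Wnt antagonist and neuropeptide bars.

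A further set was made of the cells that passed the Sfrp2 limit but had no Pmch UMI. There were 576 of them, with a median depth of 15547.5 UMIs. Their Sfrp2 was lower than in the members, at a median of 26 against 67 UMIs and 3210 against 4640 CPM. Against them, 38 of 5976 genes (0.636%) were at least 2-fold higher in the Sfrp2 Pmch cells and 106 (1.77%) lower. Igf1 was at 2014 against 783.9 CPM, Igfbp3 at 1037 against 419.5 CPM and Acta2 at 1267 against 535 CPM. The Igfbp3 difference was not seen in the members with at least 10 Pmch UMIs, where it was at 428 CPM (386 to 474). Aqp5 was at 72.1 against 25.6 CPM, though not past 2-fold at a minimum of 20 Sfrp2 UMIs, and Pcp4 was at 487 against 137 CPM. All 5 were lower than in the members in every one of the 5 comparison sets, and in 4 of the 5 genes these Sfrp2-high cells came second, the exception being Pcp4.

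The groups of genes moved less here than against the mixed set. Of 12 measured growth factor genes 2 were higher and 1 lower, with a median of -0.20. Of 7 contractile genes 2 were higher, with a median of 0.72, and of 9 imprinted genes 1 was higher, with a median of 0.52. Mineralisation genes stayed lower, with 8 of 14 past 2-fold and a median of -1.28. Among them, Ibsp was at 459 against 5512 CPM, 12.01-fold lower (11.3 to 12.7), and Spp1 at 383 against 3514 CPM. Dmp1 was at 4.72 against 142.5 CPM, and the phosphate genes Enpp1 and Ank, which control pyrophosphate, were at 5.51 and 19.7 CPM against 77.6 and 165.5 CPM. The Sfrp2-high cells without Pmch therefore held more mineralising transcripts, and how far this mixture sets the other ratios was not tested.

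Rgs5 had the largest ratio after Pmch in this comparison, at 205.5 against 13.9 CPM, and the ratio came from the cell with 457 UMIs: without the 3 cells with the most Rgs5 it fell from a log2 ratio of 3.79 to 0.45.

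The plot of levels by cell set places these genes in all 5 comparison sets. The Tac1 Aox3 cells are 282 cells without lineage genes and with at least 3 UMIs of Tac1 and Aox3, which are markers of the apical papilla list. The Aspn Tnn cells are 1321 further cells with at least 10 UMIs of Aspn and Tnn, which are ligament genes. The Cldn10 Fabp7 cells are 799 with at least 3 UMIs of Fabp7, Enpp6, Syt6 and Cldn10, which are pulp genes. They were taken from cells outside the earlier sets, so each has under 10 UMIs of Aspn and Tnn. Because these sets were chosen by those genes, the genes themselves are not read as differences. The sets share the same 118 members on the other side of each ratio, so the comparisons are not independent of one another.

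**Figure D3:**
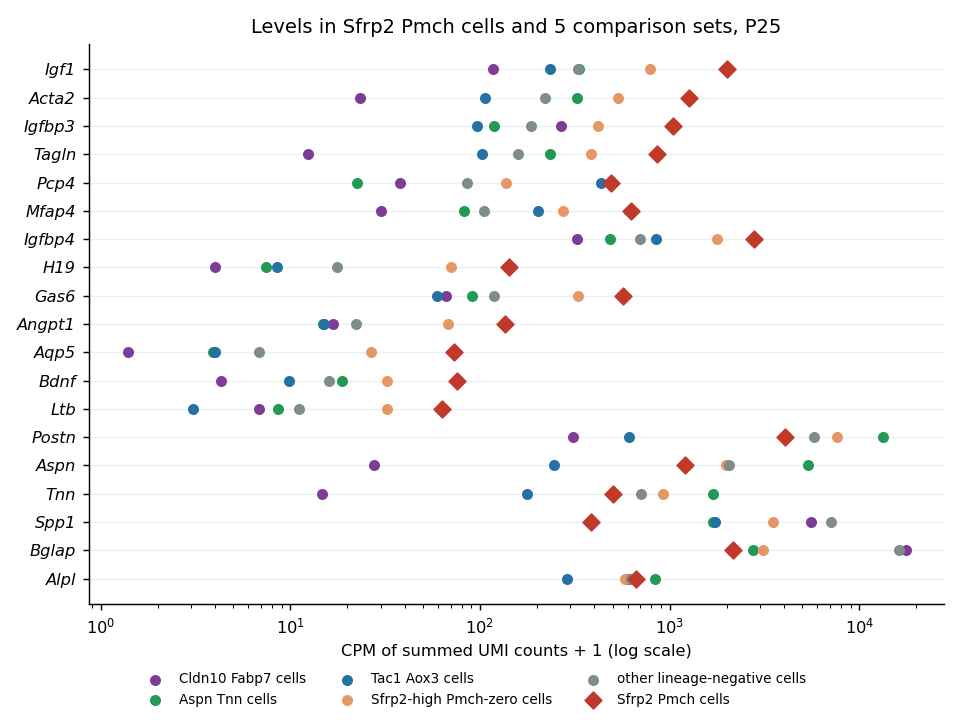
Each row is a gene and each point the CPM of summed UMI counts plus 1 (log scale) in the 118 Sfrp2 Pmch cells (red diamonds) or a comparison set (coloured circles). The diamonds lie to the right of all circles in the rows from Igf1 to Ltb and to the left of all circles for Spp1. For Postn they lie between the Aspn Tnn cells and the Cldn10 Fabp7 cells. They do so for Aspn and Tnn too, but both sets were chosen by these genes.

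Against the Tac1 Aox3 cells, 381 of 6357 genes (5.99%) were at least 2-fold higher and 439 (6.91%) lower. Sfrp2, a gate gene, was at 4640 against 85.5 CPM. Mmp13, a collagenase, was at 1686 against 98.5 CPM, 17.1-fold higher (15.6 to 18.8), and was detected in 116 members. Entpd3, an ectonucleotidase, was at 138 against 6.02 CPM, and Srgn, a proteoglycan of secretory granules, at 190 against 9.78 CPM. The insulin-like growth factor genes differed most broadly here, with 8 of 11 measured genes higher, none lower and a median of 1.72. Igf1 was at 2014 against 232 CPM and Igfbp3 at 1037 against 95.3 CPM.

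Other genes were far lower than in the Tac1 Aox3 cells. Wnt10a, a Wnt ligand of dental mesenchyme and epithelium, was at 4.72 against 226.5 CPM. Smpd3, a sphingomyelinase needed for skeletal mineral, was at 14.2 against 597 CPM, and Coch at 5.12 against 848 CPM. Tubb3, a tubulin of neurons that odontoblasts also make, was at 2.36 against 356 CPM. Wif1 did not separate these sets, at 3718 against 3582 CPM, nor did Pcp4, at 487 against 434 CPM. Pmch was seen in 3.90% of the Tac1 Aox3 cells (1.96 to 6.87), which is 11 cells.

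Against the Aspn Tnn cells, 208 of 5982 genes (3.48%) were higher and 218 (3.64%) lower. Pcp4 was at 487 against 21.5 CPM, 22.7-fold higher (20.5 to 25.1), and H19 at 141 against 6.42 CPM. Matrix Gla protein (Mgp), an inhibitor of calcification, was lower at 246.5 against 1891 CPM, and the galectin Lgals3 was lower at 21.3 against 198 CPM. Of 27 fibre genes 4 were higher and 7 lower. Aspn and Tnn chose this set, and beside them Postn was at 4049 against 13279 CPM.

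Against the Cldn10 Fabp7 cells, 397 of 6529 genes (6.08%) were higher and 716 (11.0%) lower. All 7 measured contractile genes were higher, with a median of 2.83, among them Acta2 at 1267 against 22.3 CPM and Tagln at 860 against 11.4 CPM. Itgbl1, an integrin-like matrix protein, was at 291 against 3.77 CPM. The lipocalin Apod was lower at 136 against 5750 CPM, as was the nuclear receptor Nr0b1 at 6.30 against 297 CPM. Of 26 fibre genes 14 were higher and 1 was lower, with Col3a1 at 16017 against 2193 CPM. These pulp-gene cells were also the richest in Cxcl12, at 1054 CPM.

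Cxcl12, the chemokine on which the study's reporters are built, did not separate the Sfrp2 Pmch cells from the other cells in level, at 314 against 322 CPM. It was detected in 94.9% (89.3 to 98.1) of members against 56.4% (55.0 to 57.9) of the other cells and 17.7% of Ptprc-positive cells, and at 3000 UMIs per cell in 50.8% (41.5 to 60.2) against 33.4% (32.0 to 34.8). Its level was 304 CPM in the Sfrp2-high cells without Pmch, 90.5 in the Aspn Tnn cells and 74.1 in the Tac1 Aox3 cells. The members thus had Cxcl12 in more of the cells than the mixed set without a higher summed level.

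The reporter transcripts were uneven between sets. At least 5 tdTomato UMIs were counted in 64 members (54.2%, 44.8 to 63.4), against 31.4% (30.04 to 32.7) of the other cells, 42.4% (38.3 to 46.5) of the Sfrp2-high cells without Pmch and 67.4% (61.6 to 72.8) of the Tac1 Aox3 cells. At least 5 GFP UMIs were counted in 13 members (11.02%, 6.00 to 18.1), against 49.2% (47.8 to 50.7), 44.3% (40.2 to 48.4) and 37.9% (32.3 to 43.9). GFP was the lower of the pair in the members, and its share lay between those of Ptprc-positive cells, 9.12% (6.91 to 11.8), and Epcam-positive cells, 30.6% (24.0 to 37.8). It was 23.5% in the members with at least 10 Pmch UMIs, and 33.9% of all members had at least 1 GFP UMI. The tdTomato shares of the Ptprc-positive and Epcam-positive cells were 17.6% and 47.0%. In CPM, GFP was at 190 in the members against 1522 in the other cells and tdTomato at 676 against 493. Col1a1 itself was at 26323 against 33190 CPM, a far smaller difference than that of the GFP made from its regulatory sequence.

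Taken jointly, 58 members (49.2%, 39.8 to 58.5) had tdTomato alone, 7 GFP alone, 6 both and 47 (39.8%, 30.9 to 49.3) neither at 5 UMIs. In the other cells, 22.5% had tdTomato alone, 40.4% GFP alone, 8.83% both and 28.2% neither. The sort was on these reporters and the gates of the sort are not in the sources used here, so the shares describe the library and not how often such cells are marked in the tooth.

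**Figure D4:**
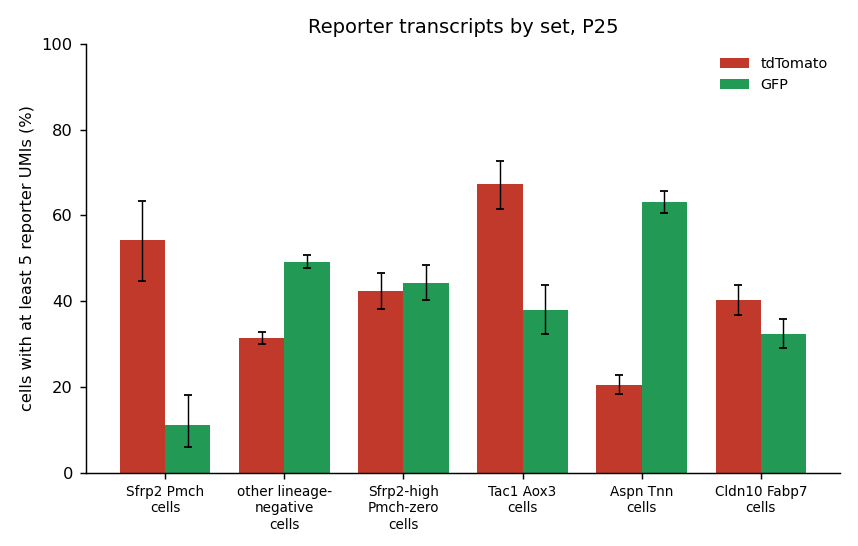
Bars give the percentage of cells with at least 5 UMIs of tdTomato (red) or GFP (green) in the Sfrp2 Pmch cells and 5 comparison sets of the P25 library, and error bars are exact 95% binomial intervals for counting error only. The Sfrp2 Pmch cells have the lowest green bar, 11.02%, and a red bar of 54.2%, below that of the Tac1 Aox3 cells at 67.4%.

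Within the 118 cells, levels varied with the Pmch count. The members with 1 Pmch UMI, with 2 to 9 and with at least 10 had median depths of 17713, 20178 and 21876.5 UMIs. Sfrp2 was at 5121 (4969 to 5276), 5923 (5759 to 6091) and 2945 (2832 to 3062) CPM in that order, and the Sfrp2 limit applied to all 3 ranges. Igfbp3 was at 1154 (1082 to 1229), 1556 (1473 to 1643) and 428 (386 to 474) CPM. The cells richest in Pmch were thus the lowest in Igfbp3, the other marker of the label, although the share with a UMI was 64.4%, 76.9% and 67.6%.

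Igf1 stayed within 1897 to 2122 CPM over the ranges, and was seen in all cells of each. Mfap4, at 612.5, 688.5 and 572 CPM, and Gas6, at 587.5, 578 and 530 CPM, were also similar. H19 was at 182, 159 and 82.9 CPM. Acta2 was highest in the cells with at least 10 Pmch UMIs, at 1690 CPM against 1071 and 1024 CPM, and so was the ligament gene Aspn, at 1733 CPM against 839 and 1039 CPM. GFP was at 58.4, 143 and 363 CPM in the same order. The ranges hold 45, 39 and 34 cells of 1 library, and cells are not replicates, so these are levels of pooled cells with no test.

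Cell-to-cell spread beyond counting was led by Bglap, Spp1, Col1a1, Rgs5 and Ibsp, whose variance was 527, 379, 301, 279 and 266 times the Poisson expectation. The 3 highest cells held 90.8% of the Rgs5 UMIs but 15.8% of the Col1a1 UMIs. Across the 4894 genes with at least 0.5 UMI per member, the median of this ratio was 1.20. The genes whose level ran most like Pmch and Sfrp2 across the 118 members, which share 1 library and its depth, were Eif3j1 for Pmch (Pearson r = 0.38) and Cdkn1c for Sfrp2 (r = 0.43). Col6a3 ran most opposite to Sfrp2 (r = -0.50), and Sfrp2 against the log of depth had r = -0.24. These relations were not tested and are no finding.

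The kept cells of P25 were also clustered without the gate genes, the reporters, mitochondrial and ribosomal genes. Of 34 clusters, cluster 2 held 99 of the 118 members (83.9%), among its 426 cells. They made up 23.2% of it, and another 199 of its cells were Sfrp2-high cells without Pmch. Of the members with 1 Pmch UMI, 38 of 45 fell there, and of those with at least 10, 28 of 34. The other 19 members were spread over 8 clusters, 7 of them in a cluster led by Cxcl10 and S100b and 4 in one led by cycling genes. Among the 15 nearest neighbours of a member, 29.0% were members on average (2.09% of kept cells are) and 45.5% were Sfrp2-high cells without Pmch (10.2% of kept cells). Of the neighbours 10.6% were Aspn Tnn cells (23.4% of kept cells), 1.19% Tac1 Aox3 cells (4.98%) and 1.53% Cldn10 Fabp7 cells (14.1%). At least 1 Aspn Tnn neighbour was found for 58 members.

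Inside cluster 2, the 99 members were set beside its 292 cells without lineage genes or Pmch. Igfbp3 was at 1219 against 1170 CPM there, a ratio of 1.04 (0.993 to 1.09). Igf1 was at 2218 against 1438 CPM, 1.54-fold (1.49 to 1.60), and Acta2 at 1415 against 998 CPM. H19 was at 167 against 131 CPM. Among lower genes, Tnn was at 453 against 917 CPM and Mgp at 73.2 against 191 CPM. GFP was low in both, at 74.2 against 86.7 CPM. The cluster was built on these genes, so the levels inside it are a description.

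The same gate found 81 cells of 7517 in the Cxcl12-GFP P6 library (1.08%, 0.857 to 1.34) and 2 of 1131 in the Cxcl12-creER P6 library, at median depths of kept cells of 8307 and 1470 UMIs against 15089 at P25. Age, genotype, sort and depth all differ between the libraries and cannot be told apart, so the shares are not compared. In the 81 cells the Pmch count had a median of 1 and a maximum of 57, and Sfrp2 a median of 21 and a maximum of 173. They were set beside the 6968 other cells without lineage genes of their own library, where 116 of 6711 genes (1.73%) were at least 2-fold higher and 207 (3.08%) lower.

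Of the 18 genes outside the gate that were highest at P25, 17 were measured in the P6 library. There, 16 of the 17 lay above the other cells and 12 passed 2-fold, with a median log2 ratio of 1.22. Of all 6711 genes measured there, 3274 lay above the other cells and 116 passed 2-fold upward, with a median of -0.01. Gas6 was at 247 against 82.4 CPM, 3.00-fold higher (2.63 to 3.41). Igf1 was at 1253 against 537 CPM, 2.33-fold higher (2.20 to 2.47), and Igfbp3 at 1775 against 808 CPM, 2.20-fold higher (2.09 to 2.30).

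Nts, outside those 18, was at 178 against 27.3 CPM in the P6 cells. H19 was abundant in the whole P6 library and higher still in the 81 cells, at 1800 against 551 CPM. Mfap4 did not separate the P6 cells, at 931 against 993 CPM, nor did the imprinted Meg3, at 1762 against 1725 CPM, or Wif1, at 905 against 953.5 CPM. Aqp5 had 1 UMI in the 81 cells and was under the level measured. Of the 10 genes lowest at P25 only 3 were measured at P6, and all 3, Spp1, Car2 and Col2a1, lay below the other cells.

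**Figure D5:**
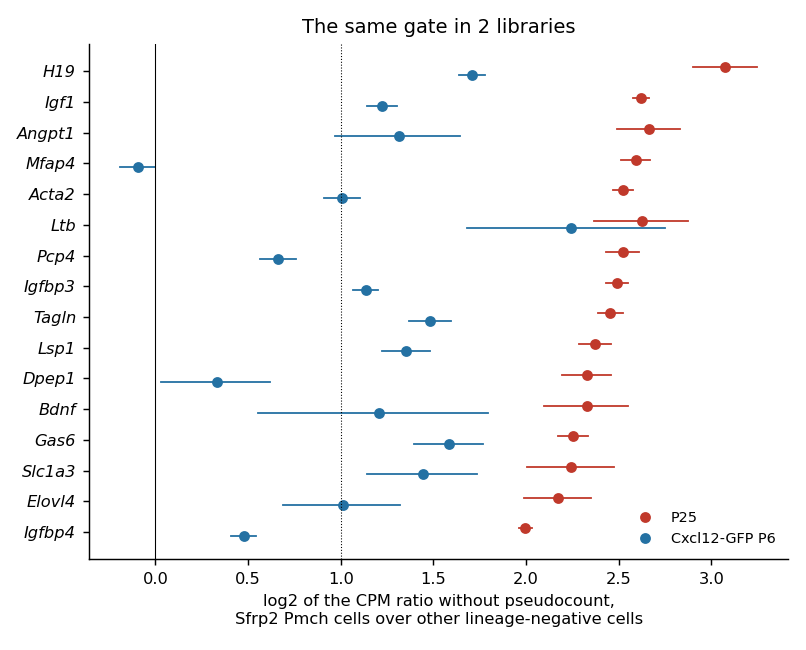
Points give the log2 ratio of CPM without pseudocount between the cells of the Sfrp2 Pmch gate and the other cells without lineage genes of the same library, at P25 (red, 118 cells) and in Cxcl12-GFP P6 (blue, 81 cells), for 16 of the 17 highest P25 genes measured at both ages. Lines are 95% intervals for counting error only, the dotted line marks 2-fold, and all P6 points except Mfap4 lie to the right of 0.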

How the data were processed

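The deposited files are tables of raw UMI counts, 1 value per gene and barcode, for 3 droplet libraries (10x 3' v3, per the labels' protocols). The submitters' processing notes name the mm10 build, Cell Ranger and Seurat, and per the file headers Cell Ranger was version 3.1.0 for P25 and 6.0.0 for Cxcl12-creER P6. Its settings are not given in these sources. From the deposited counts, barcodes were kept when they held 500 or more genes and no more than 15% mitochondrial UMIs. The gate was applied to raw counts, counts were summed over each set of cells, and CPM, log2 ratios (1 CPM added, at least 20 CPM in either set), exact Poisson and binomial 95% intervals and conditional binomial intervals of ratios were computed (Python 3.11.15, numpy 2.4.6, scipy 1.17.1). Without replicates no p-value was computed. Thinning drew 3000 UMIs per cell. Clustering used 2000 variable genes, 30 principal components, 15 neighbours and the Leiden method at resolution 1 (leidenalg 0.10.2). Positions are from GENCODE annotation of GRCm38.

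The members and the gene lists were chosen with earlier results of these data known, and support nothing by their choice. Named genes were the gate genes, Igfbp3 and the reporters. To these were added the 20 highest and 10 lowest ratios against the other cells, the 8 highest and 8 lowest against the Tac1 Aox3 cells and the 6 highest and 6 lowest against each other set. The higher side had to reach 50 CPM and 50 UMIs, and genes of mitochondria, ribosomes, haemoglobin or sex and Gm- or Rik-named genes were not eligible. Up to 6 members of each list, the 10 most variable genes and those most correlated with Pmch and Sfrp2 completed the rule. Genes that spell out a count of 5 or fewer, and list members outside that rule, were named after their values were seen. The alternatives were other limits on Pmch, Sfrp2, mitochondrial share, depth, pseudocount, level and reporter UMIs, another scaling and a mean over cells. The values of 2 genes are not reported here.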

Additional observations from a re-analysis of the deposited data

Results flagged for a closer look

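Rgs5, a pericyte gene, differed in direction between the libraries. Its log2 ratio of Sfrp2 Pmch cells over the other cells without lineage genes was 1.10 at P25 and -1.63 in Cxcl12-GFP P6, and the difference between the libraries was not tested. At P25 a single member held 457 of the 522 Rgs5 UMIs. Without the 3 members with the most Rgs5, the P25 ratio was -2.24, on the same side as at P6, and the level was 19.4 CPM.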

How the results depend on the processing

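No paired analysis was possible because each group was 1 library. Of 82 gene ratios followed, none changed direction under any alternative. Their size moved more: of 1096 alternative values, 869 lay within the counting error of the reported ratio and 227 did not. These included 45 of 82 with a pseudocount of 10 CPM, 39 with at least 10 Pmch UMIs and 32 with at least 3. Rgs5 against the other cells was not among the 82 and did change direction, as given above. Against the Sfrp2-high cells without Pmch it lost its 2-fold without the 3 members richest in it, at a log2 ratio of 0.45. It also lost it with at least 10 Pmch UMIs and with members with 2 or more left out. Aqp5 lost its 2-fold there with at least 20 Sfrp2 UMIs. The 20 highest and 10 lowest genes against the other cells stayed past 2-fold under all alternatives. Within 1.5 times of the value reported were 5 of 7 alternative member counts and 114 of 132 alternative gene counts, and 5 of 8 alternative reporter shares lay within their interval. The exceptions follow, and their cause was not tested. The members were 65 with at least 3 Pmch UMIs and 34 with at least 10. Genes at least 2-fold higher than in the other cells were 98 with a pseudocount of 10 CPM and 310 down to 5 CPM, where 555 were lower. Against the Sfrp2-high cells without Pmch, higher genes were 17 with a pseudocount of 10 CPM, 19 with at least 20 Sfrp2 UMIs, 113 down to 5 CPM and 70 when members with 2 or more Pmch UMIs were left out. Lower genes there were 65 with that pseudocount, 216 down to 5 CPM, 179 when those members were left out and 175 with a mean over cells. Down to 5 CPM, higher and lower genes were 690 and 822 against the Tac1 Aox3 cells, 485 and 369 against the Aspn Tnn cells and 708 and 1231 against the Cldn10 Fabp7 cells. A pseudocount of 10 CPM gave 145 lower genes against the Aspn Tnn cells. With a limit of 1 UMI the tdTomato share was 73.7% and the GFP share 33.9%, and GFP at 5 UMIs was 23.5% in the members with at least 10 Pmch UMIs. A set limited to at least 10 Col1a2 UMIs, and sets without the members richest in Rgs5 or in Ibsp, Spp1 and Bglap, or with 2 or more Pmch UMIs, were chosen after seeing the data. The 118 cells come from 1 library, and genes under 20 CPM were not measured.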
